A study of Rattus norvegicus with 24 samples.

Results

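The coagulation and complement proteins of blood plasma that the liver makes were followed here as 33 named genes, covering clotting factors, their inhibitors, plasminogen, and the complement and lectin pathway proteins. Rows were taken by gene name from the liver FPKM table, which gave 32 rows under 31 of the 33 names, of 30957 gene rows in all. C2 stood on 2 rows, and no row carried the name Kng1 or C5. The rows Kng1l1 and Hc, which RefSeq lists as older symbols of Kng1 and C5, are given separately and are not among the 32. The livers came from 24 female Sprague-Dawley rats, 8 per group with 1 library per rat, taken at 14 weeks of age after 8 weeks of housing that began at 6 weeks of age. All rats were fasted overnight with access to water before sampling. DL.reuteri rats lived in darkness for 24 h per day over 8 weeks and received Lactobacillus reuteri at 100 mg per day by gavage. Darkness rats lived under the same darkness and received saline by gavage. Control rats received saline and lived with 12 h of darkness per day. No genetic change is named in the labels for any group, and constant darkness stood as the model of a disturbed day-night rhythm. Each rat gave 1 sample, so no rhythm over the day could be read.

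Most clotting and complement proteins are made by hepatocytes and secreted into blood as inactive precursors. In clotting, a chain of proteases ends in thrombin, the active form of prothrombin (F2), which turns fibrinogen into fibrin. Serpins and the protein C system hold this chain in check, and plasminogen (Plg) yields plasmin, which dissolves fibrin. Complement is started by antibody (the classical pathway), by sugar-binding lectins (the lectin pathway) or by spontaneous activation (the alternative pathway), and all routes end in the membrane attack complex built from C5 to C9. Liver-enriched transcription factors such as HNF1, HNF4 and C/EBP proteins are known to bind promoters of many of these genes.

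The 250 bases before the start site were available for 26 of the 33 names in RefSeq promoters of the rat assembly GRCr8, which is not the build of the expression table. Motifs were searched on both strands. The HNF1 half-site GTTAAT was in 7 of the 26 windows (C4bpa, C5, C8a, F13b, F2, Plg and Proc) and in 6.45% of all 33469 rat promoter windows of the same length. The C/EBP motif TTGCNNAA was in 9 of 26 (C1r, C4bpa, C6, C8a, C8b, F9, Klkb1, Kng1 and Serpinc1) and in 9.22% of all windows. The E-box CACGTG was in C8a alone and in 5.59% of all windows. The HNF4 core CAAAGTCCA (0.338% of all windows) and the D-box TTATGTAA (0.828%) matched none of the 26. A match is only a match of letters. Printed below as examples are F2, Plg, C8a, F11 and Klkb1. As a fold, F2 varied most between livers, and C8a held 3 of the motifs. F11 and Klkb1 are neighbouring paralogs whose levels varied little. Plg had 114 FPKM in the library DL.reuteri 3 and 379 to 1091 FPKM in the others. Serpinc1, whose window held no HNF1 match, ran from 73.1 FPKM in DL.reuteri 3 to 796 FPKM in darkness 7. Whether variation went with a motif was not tested. Each printed window runs 5′ to 3′ on the strand of the gene, and capitals mark motif matches.
F2, chr3:98065247-98065496, minus strand: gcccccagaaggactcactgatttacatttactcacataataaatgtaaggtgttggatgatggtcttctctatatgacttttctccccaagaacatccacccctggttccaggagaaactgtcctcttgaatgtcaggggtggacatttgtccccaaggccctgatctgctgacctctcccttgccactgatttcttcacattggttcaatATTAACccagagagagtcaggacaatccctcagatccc
Plg, chr1:50915407-50915656, minus strand: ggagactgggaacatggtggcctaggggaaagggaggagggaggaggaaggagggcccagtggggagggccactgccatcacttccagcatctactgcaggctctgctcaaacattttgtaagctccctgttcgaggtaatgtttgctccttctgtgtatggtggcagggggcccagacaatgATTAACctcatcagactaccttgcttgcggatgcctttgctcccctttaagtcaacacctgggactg
C8a, chr5:124866632-124866881, minus strand: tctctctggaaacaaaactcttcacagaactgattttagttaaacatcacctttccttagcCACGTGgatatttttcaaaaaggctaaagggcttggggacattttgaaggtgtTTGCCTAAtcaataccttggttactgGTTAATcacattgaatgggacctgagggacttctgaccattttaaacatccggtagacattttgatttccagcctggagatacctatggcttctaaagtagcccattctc
F11, chr16:53720252-53720501, plus strand: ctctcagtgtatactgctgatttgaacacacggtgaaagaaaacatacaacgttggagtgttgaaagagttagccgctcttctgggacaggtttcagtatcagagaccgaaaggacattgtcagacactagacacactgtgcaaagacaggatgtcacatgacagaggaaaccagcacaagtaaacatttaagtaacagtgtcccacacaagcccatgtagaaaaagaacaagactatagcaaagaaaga
Klkb1, chr16:53690976-53691225, plus strand: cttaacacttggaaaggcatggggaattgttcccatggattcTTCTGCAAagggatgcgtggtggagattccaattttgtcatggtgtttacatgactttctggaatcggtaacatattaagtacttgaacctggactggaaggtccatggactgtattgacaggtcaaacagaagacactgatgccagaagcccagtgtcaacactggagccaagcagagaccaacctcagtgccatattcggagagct
The F2 match starts 38 bases before the start site and the Plg match 67 bases before it. In C8a the E-box, C/EBP and HNF1 matches start 189, 136 and 110 bases before the start site. The Klkb1 match starts 208 bases before it, and the F11 window held no match.

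FPKM, which divide a gene's fragments by its length and by the library's mapped total, carry no counts, so the depth behind each value is unknown and precision rests on 8 rats per group. All 8 hepatocyte markers, Alb and Ttr among them, were above 0 in every library. Transcripts of the mitochondrial genome took 18.8% to 85.0% of the library FPKM in DL.reuteri rats, 12.4% to 59.7% in darkness rats and 21.0% to 52.6% in control rats. DL.reuteri 3 stood apart, with the 85.0% share and a mean log2(FPKM + 1) of 8.25 over the hepatocyte markers, against 10.2 to 11.1 in the other 23 libraries. Its summed Kupffer cell markers (6 of 6 found) were the lowest, at 22.3 FPKM, and its summed erythroid markers (3 of 3 found) the highest, at 2907 FPKM. Kupffer markers summed to 22.3 to 348 FPKM in DL.reuteri rats, 112 to 266 in darkness rats and 135 to 328 in control rats. Erythroid markers summed to 402 to 2907 FPKM in DL.reuteri rats, 476 to 1669 in darkness rats and 463 to 2308 in control rats. Adipocyte markers (6 of 6 found) summed to 17.5 to 169 FPKM in DL.reuteri rats, 14.1 to 29.0 in darkness rats and 14.7 to 252 in control rats, with the high values in DL.reuteri 2 and control 8. Of 4 pancreas markers, Prss1 was listed at 0 in all 24 libraries and Amy2a3 in 23, while Cpa1 averaged 134 FPKM in DL.reuteri rats, 134 in darkness rats and 143 in control rats. Cpa1 was above 0 in every library. The 4 summed to 41.3 to 317 FPKM in DL.reuteri rats, 12.6 to 184 in darkness rats and 11.7 to 293 in control rats. Their part in the members' values was not tested. Values without DL.reuteri 3 stand beside the DL.reuteri differences of the members given with their range and beside the counts and medians of the set. In bulk liver, fewer cells of a type and less RNA per cell cannot be told apart.

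Throughout, ± after a mean FPKM is the SD over 8 rats, and ± after a log2 difference or a slope is its standard error. Statements that groups overlapped describe the ranges of that row only, since overlap was not counted over all genes. All 32 rows passed the filter of at least 0.5 FPKM in at least 8 libraries. Their mean over the 24 livers ran from 1.55 FPKM for Mbl2 to 1352 FPKM for Vtn, with a median of 167 FPKM, against a median of 4.82 FPKM over the 12151 genes that passed the same filter. A mean above 100 FPKM was reached by 21 of the 32 rows and by 4.72% of all genes tested. Vtn (vitronectin), a plasma and matrix protein that also blocks the membrane attack complex, led the order, followed by Plg at 644 FPKM, F2 at 606 FPKM and Serpinc1 at 557 FPKM. Vtn lay above Plg by more than their spread between livers in control rats, while Plg, F2 and Serpinc1 overlapped in all 3 groups. At the low end were Masp1 at 11.7 FPKM, F5 at 10.5 FPKM, Cfb at 3.19 FPKM and Mbl2. Together the 32 rows made up 1.12 ± 0.538% of the library FPKM in DL.reuteri rats, 1.13 ± 0.440% in darkness rats and 1.13 ± 0.286% in control rats (SD, n = 8 each). Outside the mitochondrial genome this share was 1.76 ± 0.286%, 1.79 ± 0.224% and 1.77 ± 0.157% in the same order of groups, and the group ranges overlapped on both scales.

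**Figure D1:**
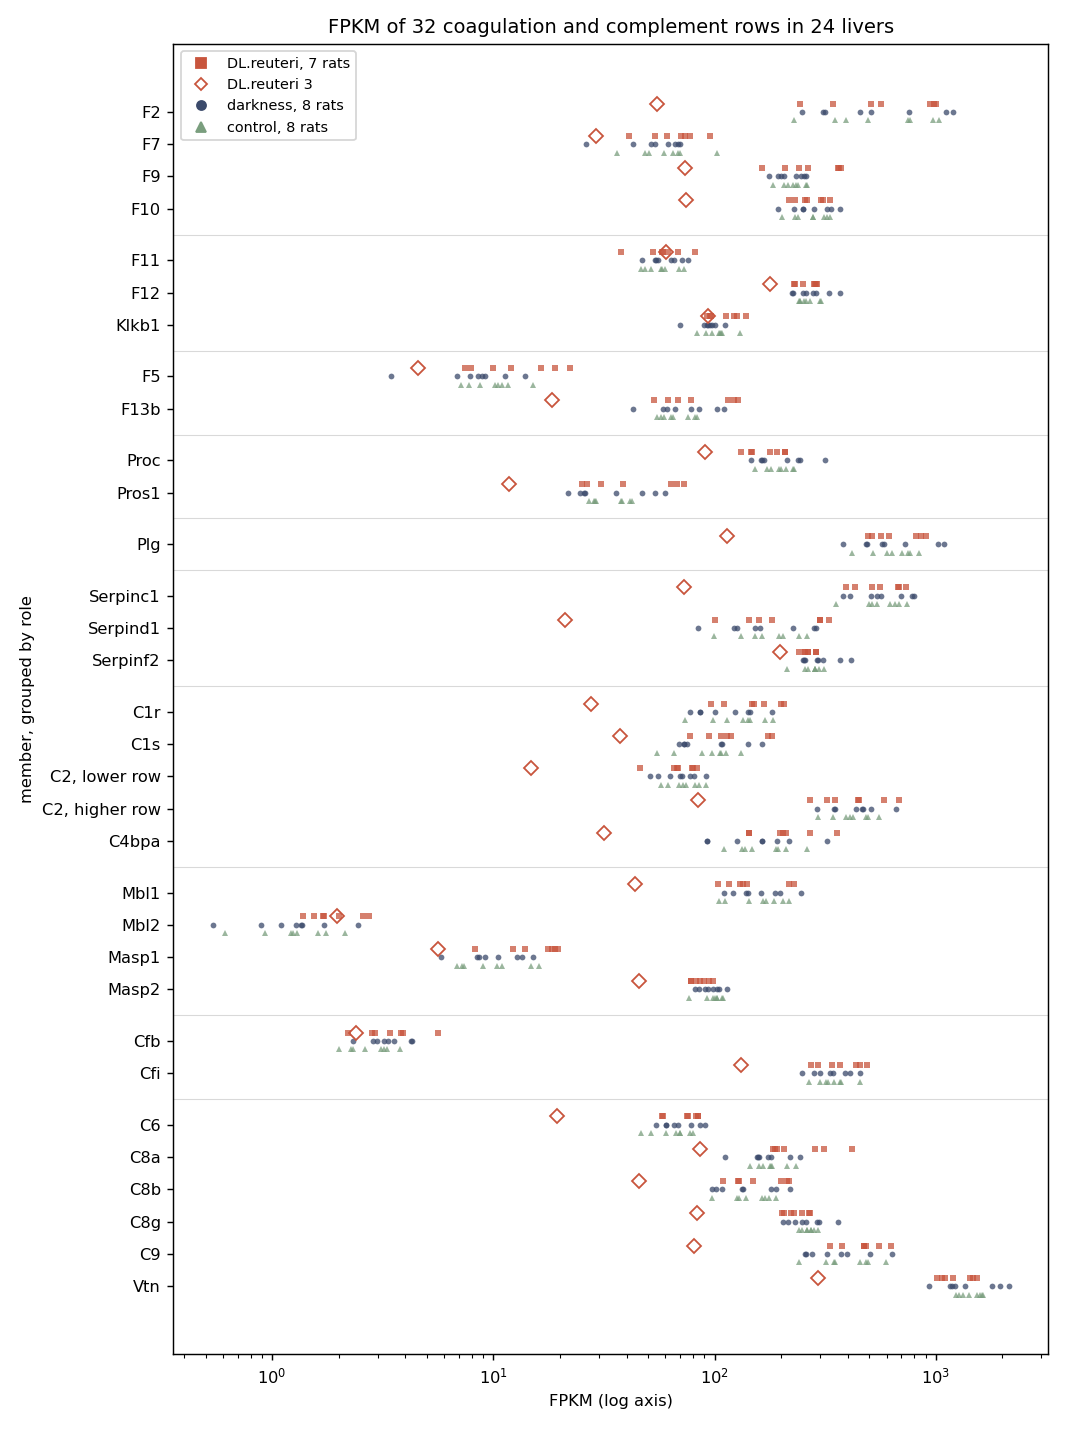
FPKM (log axis) of the 32 rows in each of 24 livers, rows grouped by role; squares are DL.reuteri rats, open diamonds the library DL.reuteri 3, circles darkness rats and triangles control rats. The 3 groups overlap in every row, and overlap was not counted over all genes. DL.reuteri 3 is the lowest of 24 libraries in 26 rows and in 43.7% of all genes tested.

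The vitamin K-dependent zymogens, which need carboxylation of glutamate to bind membranes, showed no group difference past the threshold. F2 had 54.98 to 1002 FPKM in DL.reuteri rats (median 536), 249 to 1198 in darkness rats (median 481) and 229 to 1032 in control rats (median 621). The means were 581 ± 363 FPKM in DL.reuteri rats, 614 ± 371 in darkness rats and 623 ± 299 in control rats. As a fold, the highest and the lowest of 24 libraries lay further apart than for any other member, and the groups overlapped. The differences in log2(FPKM + 1) were -0.08 ± 0.49 for darkness against control rats, -0.27 ± 0.49 for DL.reuteri against darkness rats and -0.36 ± 0.49 for DL.reuteri against control rats (standard error). Without DL.reuteri 3, F2 differed by 0.15 from darkness rats and by 0.07 from control rats. F10, which as factor Xa makes thrombin, had 248 ± 80.8 FPKM in DL.reuteri rats, 279 ± 58.8 in darkness rats and 275 ± 47.4 in control rats (SD, n = 8 each). F9, the factor lost in hemophilia B, had 256 ± 108 FPKM in DL.reuteri rats, 221 ± 30.8 in darkness rats and 228 ± 26.4 in control rats. F7, which starts clotting together with tissue factor, had 62.7 ± 21.3 FPKM in DL.reuteri rats, 55.2 ± 14.9 in darkness rats and 62.5 ± 19.6 in control rats. Across these 4 genes the DL.reuteri against darkness differences ran from -0.27 for F2 to 0.16 for F7, each smaller than its own 95% half-interval. Without DL.reuteri 3 they were 0.15 for F2, -0.02 for F10, 0.31 for F9 and 0.30 for F7.

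Of the contact and intrinsic factors, F12 was the most abundant and also one of the steadiest members. F12, which is activated on negatively charged surfaces, had 178 to 289.9 FPKM in DL.reuteri rats (median 267), 223 to 369 in darkness rats (median 269) and 239.7 to 304 in control rats (median 256). The means were 254 ± 40.2 FPKM in DL.reuteri rats, 278 ± 50.4 in darkness rats and 263 ± 25.3 in control rats. The groups overlapped, with DL.reuteri 3 lowest and darkness 7 highest. Its differences were 0.06 ± 0.15 for darkness against control rats, -0.13 ± 0.15 for DL.reuteri against darkness rats and -0.06 ± 0.15 for DL.reuteri against control rats. Without DL.reuteri 3, F12 differed by -0.06 from darkness rats and by 0.01 from control rats. Klkb1 (plasma prekallikrein), which activates F12 and releases bradykinin from kininogen, had 109.7 ± 17.7 FPKM in DL.reuteri rats, 93.9 ± 11.8 in darkness rats and 104 ± 13.7 in control rats (SD, n = 8 each). F11, the product of the gene next to Klkb1, had 59.8 ± 12.5 FPKM in DL.reuteri rats, 60.9 ± 9.85 in darkness rats and 57.9 ± 9.20 in control rats. For both of these genes DL.reuteri 3 lay inside the range of the other libraries, with 93.8 FPKM for Klkb1 and 60.3 FPKM for F11. The highest and the lowest of 24 libraries differed 1.97-fold for Klkb1, 2.07-fold for F12 and 2.17-fold for F11, against 21.8-fold for F2. Over the 32 rows the median of this fold was 4.99, and over the 23 libraries without DL.reuteri 3 it was 2.46.

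F13b, the carrier subunit of the fibrin-crosslinking factor XIII, had 18.3 to 127 FPKM in DL.reuteri rats (median 73.6), 42.9 to 111 in darkness rats (median 72.1) and 54.9 to 83.6 in control rats (median 64.3). The means were 80.7 ± 38.3 FPKM in DL.reuteri rats, 75.6 ± 23.00 in darkness rats and 67.7 ± 11.3 in control rats. The groups overlapped, and the DL.reuteri libraries covered the widest range. Its differences were 0.12 ± 0.29 for darkness against control rats, -0.04 ± 0.29 for DL.reuteri against darkness rats and 0.07 ± 0.29 for DL.reuteri against control rats. Without DL.reuteri 3, F13b differed by 0.23 from darkness rats and by 0.34 from control rats. F5, the cofactor of factor Xa, had 12.4 ± 6.17 FPKM in DL.reuteri rats, 8.74 ± 3.08 in darkness rats and 10.3 ± 2.52 in control rats (SD, n = 8 each). In F5 the DL.reuteri against darkness difference was 0.39 ± 0.25 (0.55 without DL.reuteri 3) and did not pass the threshold. Proc, the zymogen of activated protein C, had 90.4 to 209 FPKM in DL.reuteri rats (median 163), 146 to 316 in darkness rats (median 189.7) and 152 to 229 in control rats (median 198). The means were 163 ± 41.5 FPKM in DL.reuteri rats, 206 ± 57.8 in darkness rats and 196 ± 26.5 in control rats. The DL.reuteri median was the lowest of the 3 groups, but the groups overlapped. Its differences were 0.04 ± 0.19 for darkness against control rats, -0.34 ± 0.19 for DL.reuteri against darkness rats and -0.30 ± 0.19 for DL.reuteri against control rats. Without DL.reuteri 3, Proc differed by -0.23 from darkness rats and by -0.18 from control rats. Pros1 (protein S), the cofactor of activated protein C, had 42.2 ± 22.9 FPKM in DL.reuteri rats, 36.8 ± 14.8 in darkness rats and 34.2 ± 6.40 in control rats.

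Plg had 114 to 901 FPKM in DL.reuteri rats (median 589), 379 to 1091 in darkness rats (median 577) and 417 to 844 in control rats (median 669). The means were 608 ± 255 FPKM in DL.reuteri rats, 669 ± 261 in darkness rats and 655 ± 139.8 in control rats. Darkness 7 was the highest library and DL.reuteri 3 the lowest, and the groups overlapped. Its differences were -0.03 ± 0.32 for darkness against control rats, -0.24 ± 0.32 for DL.reuteri against darkness rats and -0.27 ± 0.32 for DL.reuteri against control rats. Without DL.reuteri 3, Plg differed by 0.07 from darkness rats and by 0.05 from control rats. Serpinc1 (antithrombin), the main inhibitor of thrombin and factor Xa, had 73.1 to 732 FPKM in DL.reuteri rats (median 538), 381 to 796 in darkness rats (median 556) and 355 to 739.7 in control rats (median 583). The means were 508 ± 214 FPKM in DL.reuteri rats, 586 ± 158 in darkness rats and 576 ± 122 in control rats. Its 3 medians lay close together within overlapping ranges. The differences of Serpinc1 were 0.01 ± 0.33 for darkness against control rats, -0.39 ± 0.33 for DL.reuteri against darkness rats and -0.38 ± 0.33 for DL.reuteri against control rats. Serpinf2 (alpha-2-antiplasmin), which blocks plasmin, had 257 ± 28.7 FPKM in DL.reuteri rats, 305 ± 58.4 in darkness rats and 275 ± 30.8 in control rats (SD, n = 8 each). Serpind1 (heparin cofactor II), another thrombin inhibitor, had 192 ± 109 FPKM in DL.reuteri rats, 180.3 ± 76.2 in darkness rats and 181 ± 54.9 in control rats. In log2(FPKM + 1) all 3 serpins had a negative DL.reuteri difference, at -0.39 to -0.14 against darkness rats and -0.38 to -0.10 against control rats, and none passed the threshold. For Serpind1 the mean FPKM was nevertheless highest in DL.reuteri rats, and the medians were 171 FPKM in DL.reuteri rats, 157 in darkness rats and 179 in control rats. Without DL.reuteri 3, Serpinc1 differed by -0.03 from darkness rats and by -0.02 from control rats. For Serpinf2 these values were -0.18 and -0.04, and for Serpind1 0.26 and 0.19, so both signs of Serpind1 turned.

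In the classical pathway the most abundant row was one of the 2 C2 rows, ENSRNOG00000051158, which had 84.3 to 682 FPKM in DL.reuteri rats (median 399), 291 to 661 in darkness rats (median 449) and 294 to 557 in control rats (median 417). The means were 399 ± 186 FPKM in DL.reuteri rats, 440.5 ± 116 in darkness rats and 425 ± 85.3 in control rats. Its groups overlapped, with DL.reuteri libraries at both ends. C2 supplies the protease part of the C3 convertase. Its differences were 0.04 ± 0.30 for darkness against control rats, -0.30 ± 0.30 for DL.reuteri against darkness rats and -0.27 ± 0.30 for DL.reuteri against control rats. Without DL.reuteri 3, this row differed by -0.01 from darkness rats and by 0.02 from control rats. The other C2 row, ENSRNOG00000051235, had 63.1 ± 22.8 FPKM in DL.reuteri rats, 70.1 ± 13.4 in darkness rats and 74.04 ± 11.8 in control rats (SD, n = 8 each). How fragments were split between the C2 rows is not given in the sources used here, and C2 neighbours Cfb in the RefSeq gene table, so the values of C2 and of Cfb are uncertain. C1r, the protease that starts the classical pathway, had 138 ± 59.04 FPKM in DL.reuteri rats, 118 ± 36.9 in darkness rats and 132 ± 36.4 in control rats. C1s, which C1r activates and which cleaves C4 and C2, had 113 ± 48.02 FPKM in DL.reuteri rats, 101 ± 35.7 in darkness rats and 95.3 ± 25.2 in control rats. C4bpa, the alpha chain of the C4b-binding inhibitor, had 195 ± 96.2 FPKM in DL.reuteri rats, 171 ± 75.4 in darkness rats and 173 ± 50.02 in control rats. The 5 rows differed between DL.reuteri and darkness rats by -0.30 to 0.10, with 3 positive and 2 negative differences, and between darkness and control rats by -0.17 to 0.06. Without DL.reuteri 3 the differences from darkness rats were -0.01 and 0.00 for the C2 rows and 0.31 to 0.40 for C1s, C4bpa and C1r.

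The lectin pathway held the only member with an unadjusted p under 0.05. Mbl2 (ENSRNOG00000011637), a mannose-binding lectin, had 1.38 to 2.75 FPKM in DL.reuteri rats (median 1.84), 0.542 to 2.45 in darkness rats (median 1.32) and 0.614 to 2.14 in control rats (median 1.27). The means were 1.96 ± 0.483 FPKM in DL.reuteri rats, 1.34 ± 0.570 in darkness rats and 1.35 ± 0.477 in control rats. The lowest DL.reuteri library lay above the darkness median and the control median, yet the ranges overlapped. The difference in log2(FPKM + 1) was 0.36 ± 0.15 for DL.reuteri against darkness rats (95% interval 0.05 to 0.67, adjusted p = 0.219 over all genes in limma). For DL.reuteri against control rats it was 0.34 ± 0.15 (95% interval 0.04 to 0.65, adjusted p in limma 0.325), and for darkness against control rats -0.02 ± 0.15. Both DL.reuteri comparisons use the same 8 DL.reuteri libraries. Without DL.reuteri 3 they were 0.36 and 0.34. The unadjusted p against darkness rats no longer passed 0.05 without darkness 2 (difference 0.28) or DL.reuteri 4 (0.31). Against control rats it no longer passed without DL.reuteri 1 (0.30), DL.reuteri 4 (0.29), control 4 (0.27) or control 7 (0.30). In neither comparison did it pass with array weights or with scaling to the median member of each library. Nor did it with scaling outside the mitochondrial genome or by median ratios when DL.reuteri 3 was left out. With the Ballgown library term it passed against control rats but not against darkness rats. The remaining scalings and covariates kept it in both comparisons. At this level the pseudocount of 1 FPKM shrinks the log2 difference, and neither adjusted p passed the threshold.

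Mbl1, the mannose-binding lectin row with the higher listed FPKM, had 43.6 to 229 FPKM in DL.reuteri rats (median 133), 109.8 to 246 in darkness rats (median 152) and 105 to 217 in control rats (median 168). The means were 139 ± 59.7 FPKM in DL.reuteri rats, 163 ± 45.3 in darkness rats and 163 ± 40.6 in control rats. The groups overlapped, and the medians had the opposite order to those of Mbl2. The differences of Mbl1 were 0.00 ± 0.26 for darkness against control rats, -0.32 ± 0.26 for DL.reuteri against darkness rats and -0.33 ± 0.26 for DL.reuteri against control rats. Without DL.reuteri 3, Mbl1 differed by -0.11 from darkness rats and by -0.11 from control rats. Masp2, the lectin-associated protease that cleaves C4 and C2, had 81.6 ± 16.1 FPKM in DL.reuteri rats, 96.3 ± 10.6 in darkness rats and 98.9 ± 10.4 in control rats (SD, n = 8 each). Masp1, the protease that activates Masp2, had 14.4 ± 5.27 FPKM in DL.reuteri rats, 10.5 ± 3.09 in darkness rats and 10.3 ± 3.50 in control rats. Masp1 differed by 0.40 ± 0.23 and Masp2 by -0.30 ± 0.15 between DL.reuteri and control rats, in opposite directions, and neither passed the threshold (adjusted p in limma 0.474 and 0.386). Without DL.reuteri 3 these differences were 0.56 and -0.19. Whether Mbl1 and Mbl2, or Masp1 and Masp2, differed in their response was not tested.

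Cfi (factor I), which inactivates C3b and C4b, had 132 to 489 FPKM in DL.reuteri rats (median 355), 249.8 to 456 in darkness rats (median 338) and 267 to 454 in control rats (median 337). The means were 348 ± 116 FPKM in DL.reuteri rats, 345 ± 69.03 in darkness rats and 344 ± 56.4 in control rats. The groups overlapped, and 23 of the 24 libraries lay within a 1.96-fold range. Its differences were -0.01 ± 0.22 for darkness against control rats, -0.06 ± 0.22 for DL.reuteri against darkness rats and -0.06 ± 0.22 for DL.reuteri against control rats. Without DL.reuteri 3, Cfi differed by 0.13 from darkness rats and by 0.12 from control rats. Cfb (factor B), the protease of the alternative pathway convertase, was listed at a low level, with 3.39 ± 1.10 FPKM in DL.reuteri rats, 3.35 ± 0.671 in darkness rats and 2.83 ± 0.610 in control rats (SD, n = 8 each). Whether Cfb fragments were counted under a C2 row was not tested. Vtn had 293 to 1535 FPKM in DL.reuteri rats (median 1149), 936 to 2137 in darkness rats (median 1284) and 1235 to 1637 in control rats (median 1470.1). The means were 1138 ± 394 FPKM in DL.reuteri rats, 1465 ± 434 in darkness rats and 1453 ± 159.9 in control rats. DL.reuteri 3 lay far below every other library, and the 3 ranges still overlapped. The differences of Vtn were -0.03 ± 0.27 for darkness against control rats, -0.44 ± 0.27 for DL.reuteri against darkness rats and -0.48 ± 0.27 for DL.reuteri against control rats. Leaving out DL.reuteri 3 brought Vtn to -0.18 against darkness rats and -0.22 against control rats.

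C9, which forms the ring of the membrane attack pore, had 426 ± 167 FPKM in DL.reuteri rats, 378 ± 134 in darkness rats and 411 ± 116 in control rats (SD, n = 8 each). C8 is built from 3 chains, each made by its own gene. C8a, the alpha chain, had 234 ± 102 FPKM in DL.reuteri rats, 175 ± 41.04 in darkness rats and 182 ± 29.2 in control rats. C8b, the beta chain, had 149 ± 58.8 FPKM in DL.reuteri rats, 145 ± 45.3 in darkness rats and 149 ± 30.6 in control rats. C8g, the gamma chain and a lipocalin, had 216 ± 59.5 FPKM in DL.reuteri rats, 263 ± 51.9 in darkness rats and 267 ± 17.1 in control rats. Against darkness rats the DL.reuteri difference was 0.32 ± 0.23 for C8a, -0.04 ± 0.26 for C8b and -0.33 ± 0.20 for C8g, and none passed the threshold. Without DL.reuteri 3 these were 0.51, 0.18 and -0.15. C6, which joins C5b, had 67.1 ± 21.95 FPKM in DL.reuteri rats, 70.4 ± 13.02 in darkness rats and 65.3 ± 11.7 in control rats. Outside the 32 rows, Hc (C5) had 121 ± 37.7 FPKM in DL.reuteri rats, 94.9 ± 26.9 in darkness rats and 98.4 ± 16.9 in control rats. Kng1l1, a kininogen row whose name RefSeq ties to Kng1, had 742 ± 330.4 FPKM in DL.reuteri rats, 991 ± 283 in darkness rats and 992 ± 265 in control rats. Reads may be shared between Kng1l1 and the kininogen paralogs, so its level is uncertain.

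Between darkness and control rats, no member passed the threshold. The differences lay between -0.25 for F5 and 0.19 for Cfb, with 13 rows positive and 19 negative. At an adjusted p under 0.05, limma called 0 of the 32 rows, and 0% of all 12151 genes. At an unadjusted p under 0.05 it called 0 of the 32 rows and 2.78% of all genes (58 higher and 280 lower in darkness rats), and the model with the Ballgown library term called 0 of 32 rows at an adjusted p under 0.05 (0% of all genes) and 1 of 32 (C6, on the higher side) at an unadjusted p under 0.05 (3.3% of all genes). The median difference of the 32 rows was -0.02, against -0.07 over all genes and 0.03 over the hepatocyte markers. The 95% intervals stayed within 1 log2 unit of 0 for 31 of the 32 rows, the exception being F2 at -1.09 to 0.92. The narrowest interval was that of Klkb1, -0.42 to 0.14, which spans folds of 0.747 to 1.10. The direction of the set was not stable between models here: with the Ballgown library term 29 of 32 rows were positive, with a median of 0.16 against 0.03 over all genes.

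Between DL.reuteri and darkness rats the members spread in both directions, from -0.44 for Vtn to 0.39 for F5, with 12 rows positive and 20 negative. No row passed an adjusted p under 0.05, where 0.0823% of all genes did. Mbl2 was the 1 row of 32 (3.12%) at an unadjusted p under 0.05, against 16.8% of all genes (1453 higher and 594 lower in DL.reuteri rats). Between DL.reuteri and control rats the range was -0.48 for Vtn to 0.40 for Masp1, with 11 rows positive. Again 0 of 32 rows passed at the adjusted threshold and 0.14% of all genes did, and Mbl2 was the 1 row at an unadjusted p under 0.05, against 13.2% of all genes. These 2 comparisons share the DL.reuteri libraries. The median of the 32 rows was -0.05 against darkness rats (all genes 0.07, hepatocyte markers -0.28) and -0.07 against control rats (all genes 0.00, hepatocyte markers -0.23).

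**Figure D2:**
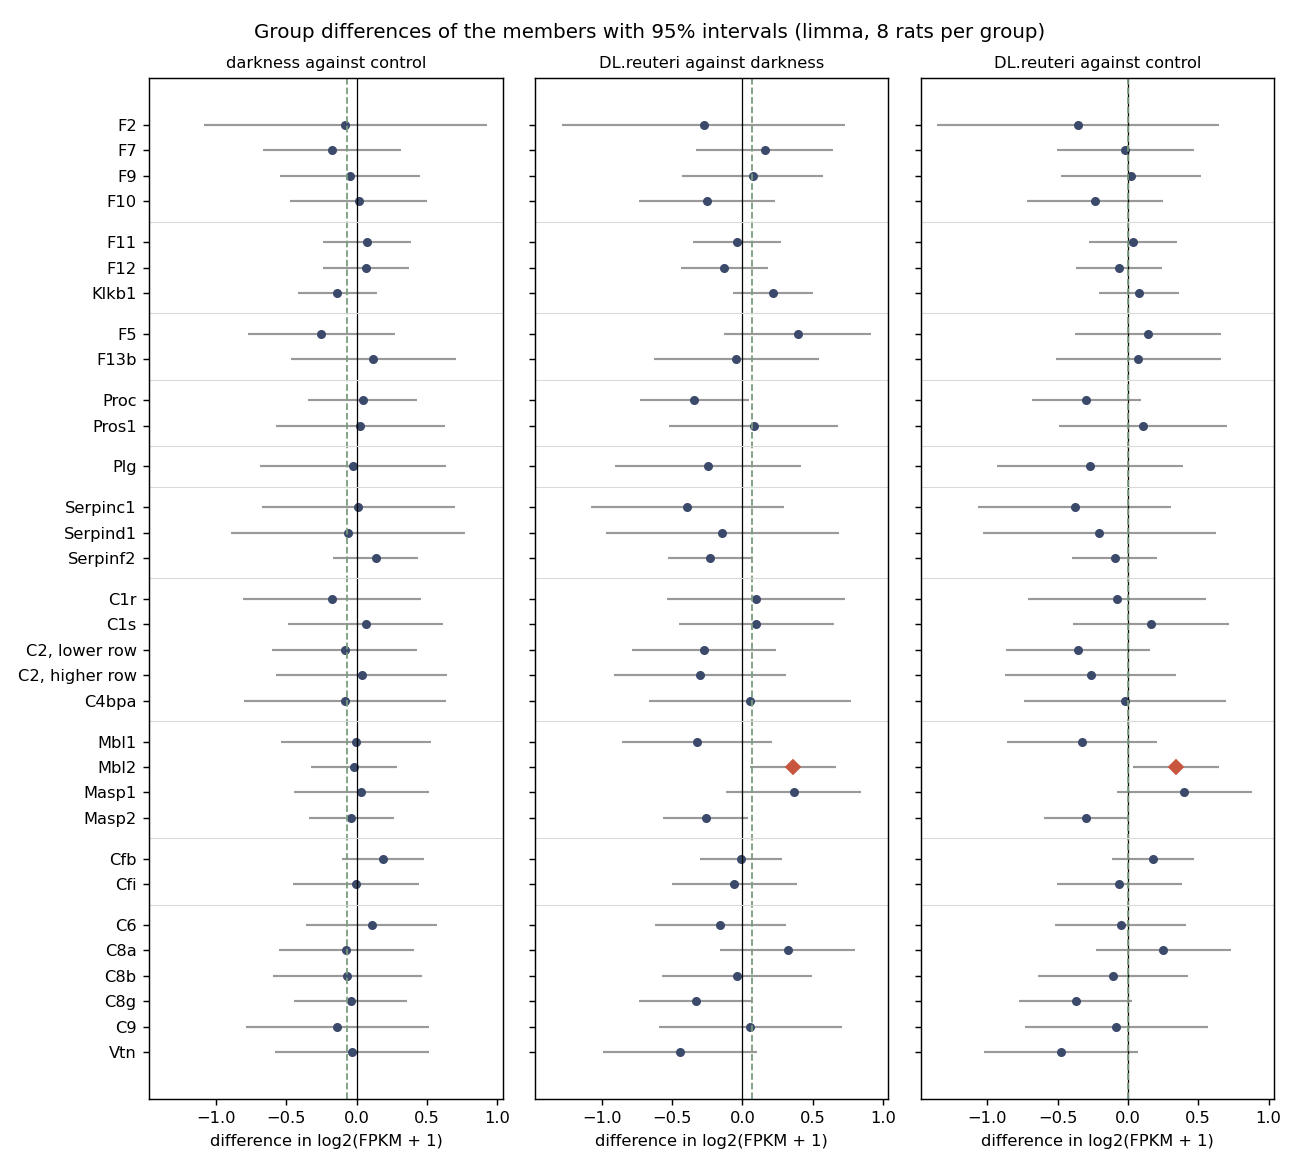
Differences in log2(FPKM + 1) with 95% intervals from limma for the 32 rows in 3 comparisons of 8 against 8 rats; diamonds mark an unadjusted p under 0.05 and the dashed line the median of all genes tested. Mbl2 is the only diamond, at 0.36 against darkness rats and 0.34 against control rats.

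DL.reuteri 3 was the lowest of the 24 libraries in 26 of the 32 rows, and in 43.7% of all genes tested. The other DL.reuteri libraries had a median level 3.21 times that of DL.reuteri 3 for the typical member and 1.98 times for the typical gene tested. Its F2 level was 54.98 FPKM, where the next lowest library had 229 FPKM, and its Serpind1 level was 20.99 FPKM, where the next lowest had 84.5 FPKM. The 6 rows in which another library was lowest were F7, F11, Klkb1, F5, Mbl2 and Cfb. Of the hepatocyte markers 7 of 8 were also lowest in DL.reuteri 3, whose mitochondrial share and erythroid sum were the highest. Without it the median of the 32 rows was 0.14 against darkness rats (all genes 0.15) and 0.12 against control rats (all genes 0.08), so the sign of both medians turned. The sign turned in 8 of 32 rows against darkness rats (F2, F13b, Plg, Serpind1, Cfb, Cfi, C6 and C8b) and in 12 of 32 against control rats (F2, F7, F12, Plg, Serpind1, C1r, the C2 row ENSRNOG00000051158, C4bpa, Cfi, C6, C8b and C9). Without it 0 of 32 rows passed an adjusted p under 0.05, where 10% of all genes did against darkness rats and 2.07% against control rats. At an unadjusted p under 0.05, 5 of 32 rows were on the higher side against darkness rats (Klkb1, F5, Mbl2, C8a and Masp1), against 26.7% of all genes, and 3 of 32 against control rats (Mbl2, C8a and Masp1), against 19.2% of all genes. C8a then differed by 0.51 ± 0.18 from darkness rats (95% interval 0.14 to 0.88, adjusted p in limma 0.0689).

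The direction of the set also depended on how libraries were scaled. Rescaling every library by its nonmitochondrial FPKM total moved the median of all genes to 0.17 against darkness rats and 0.13 against control rats, and that of the 32 rows to 0.10 and 0.11. Relative to all genes the members were at -0.12 on the deposited scale, -0.07 on this scale, -0.13 after scaling by median ratios and -0.01 without DL.reuteri 3, for DL.reuteri against darkness rats. With the Ballgown library term they were at -0.25, with 27 of 32 rows negative and a median of -0.27, and with the hepatocyte marker score as a covariate at 0.04, with 20 of 32 rows positive and a median of 0.18. On the scale outside the mitochondrial genome, C8a was the 1 row of 32 called higher against darkness rats, at 0.48 ± 0.14 (adjusted p in limma 0.0348), where 8.37% of all genes were called. At an unadjusted p under 0.05 it held 6 of 32 rows against darkness rats (25.7% of all genes) and 5 of 32 against control rats (20.7%), and no row was called against control rats (2.1% of all genes). Over the deposited values, both rescalings and the fit without DL.reuteri 3, F7, F9, Klkb1, F5, Pros1, C1r, C1s, Mbl2, Masp1 and C8a were positive under all 4 settings. Vtn, C8g, Proc, Masp2, Mbl1, Serpinf2, Serpinc1, F10 and both C2 rows were negative under all 4. Other settings turned signs in this comparison as well, 9 of 32 with array weights and 8 of 32 with the hepatocyte marker score as a covariate.

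Calls under the other models and scalings were few. C8a (higher) and Masp2 (lower) were called under more than 1 of them, and each other called row under 1. With the library term of Ballgown, 3 of 32 rows were called lower in DL.reuteri than in darkness rats (C8g, Masp2 and the C2 row ENSRNOG00000051235), against 7.04% of all genes. At an unadjusted p under 0.05 this model held 10 of 32 rows, all lower, against 20.3% of all genes. It called 2 of 32 lower than in control rats (C8g and Masp2), against 4.73%. With the hepatocyte marker score as a covariate, C8a and C1r were called higher than in darkness rats, 2 of 32 against 14.5% of all genes. With the mitochondrial share as a covariate, Proc and Vtn were called lower, 2 of 32 against 9.76%. With DL.reuteri 3 left out, scaling outside the mitochondrial genome called C8a higher (1 of 32, against 7.97%) and scaling by median ratios called Masp2 and Serpinf2 lower (2 of 32, against 5.4%). Leaving out DL.reuteri 2 and control 8, the livers with high adipocyte markers, called 0 rows in each comparison. Of all genes this setting called 0 between darkness and control rats, 1 between DL.reuteri and darkness rats and 0 between DL.reuteri and control rats. The median of the 32 rows against control rats was then -0.24 in DL.reuteri rats (all genes -0.01).

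**Figure D3:**
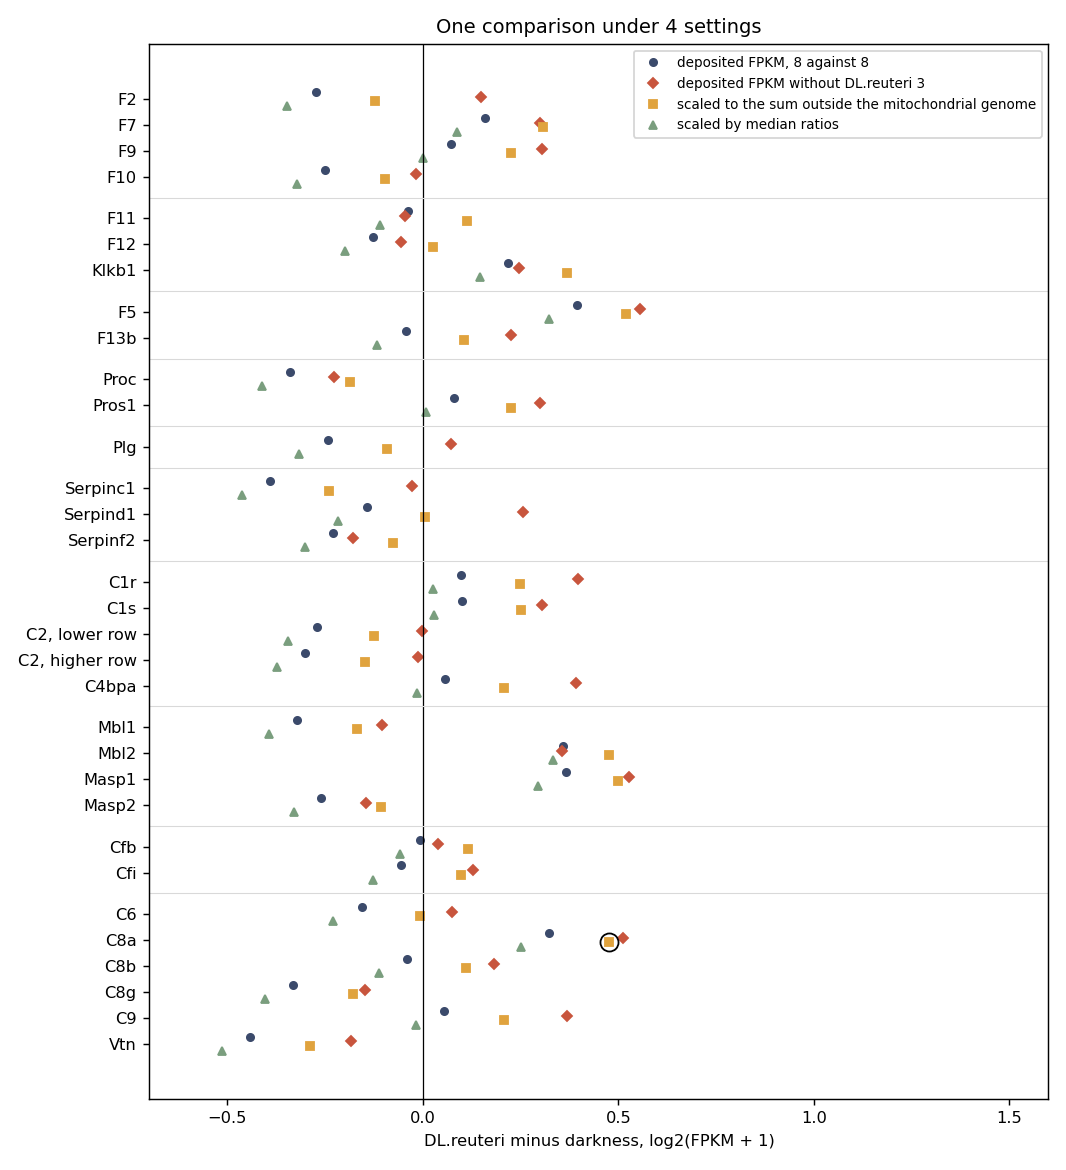
DL.reuteri minus darkness differences of the 32 rows under 4 settings: circles are the deposited FPKM, diamonds the same without DL.reuteri 3, squares FPKM rescaled by the nonmitochondrial total and triangles scaling by median ratios; a ring marks an adjusted p under 0.05. The only ring is C8a at 0.48.

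Between livers of the same group the members varied with the mitochondrial share of the library. Each gene's log2(FPKM + 1) was fitted on group and on this share in limma, a fit added after the data were seen, and the slope is given per 10 percentage points. FPKM divide by the library's mapped total, so a larger mitochondrial share tends to lower the values of other genes by construction. The FPKM sum was not fixed and ran from 570262 in DL.reuteri 8 to 989114 in DL.reuteri 3. On the deposited scale 28 of 32 rows (87.5%) had a negative slope at an adjusted p under 0.05, against 41.1% of all genes, with a median slope of -0.23 against -0.06. Without DL.reuteri 3 these were 24 of 32 rows (75%) and 29.9% of all genes. With all libraries, a positive slope at an adjusted p under 0.05 was held by 0 of 32 rows and by 1591 of the 12151 genes. F2 had the steepest slope of the members, at -0.59 ± 0.03, and ranked 27 of the 12151 genes from the most negative. Its level was 1198 FPKM in darkness 6, where the mitochondrial share was 16.5%, 249 FPKM in darkness 4 at 59.7%, and 54.98 FPKM in DL.reuteri 3 at 85.0%. Serpind1 followed at -0.48 ± 0.03, and C4bpa at -0.39 ± 0.04. The 4 rows not called were F11 at 0.00 ± 0.03, Mbl2 at 0.01 ± 0.04, Cfb at -0.03 ± 0.03 and Klkb1 at -0.05 ± 0.03.

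After rescaling by the nonmitochondrial FPKM total, the members fell on both sides of 0. A negative slope at an adjusted p under 0.05 was held by 15 of 32 rows (46.9%), against 16.1% of all genes, and a positive one by 8 of 32 (25%), against 45.2% of all genes. F2 stayed at -0.41 ± 0.03, Serpind1 at -0.30 ± 0.02 and C4bpa at -0.21 ± 0.03. The positive rows were F11 at 0.18 ± 0.04, Mbl2 at 0.14 ± 0.04, Klkb1 at 0.14 ± 0.03, Cfb at 0.11 ± 0.03, Serpinf2, C8g, F12 and Masp2, of which F11 and C8g remained called without DL.reuteri 3. The hepatocyte markers had a median slope of -0.29 on the deposited scale and -0.11 on this one, and their part in the members' slopes was not tested. Members with a promoter window were also split by motif, on the deposited scale only. The 6 with an HNF1 half-site had slopes from -0.59 to -0.19 (median -0.34), and the 18 without one from -0.36 to 0.01 (median -0.21). The 8 with a C/EBP match had slopes from -0.39 to -0.05 (median -0.26), and the 16 without one from -0.59 to 0.01 (median -0.21). In both splits the ranges overlapped, and neither split was tested.

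**Figure D4:**
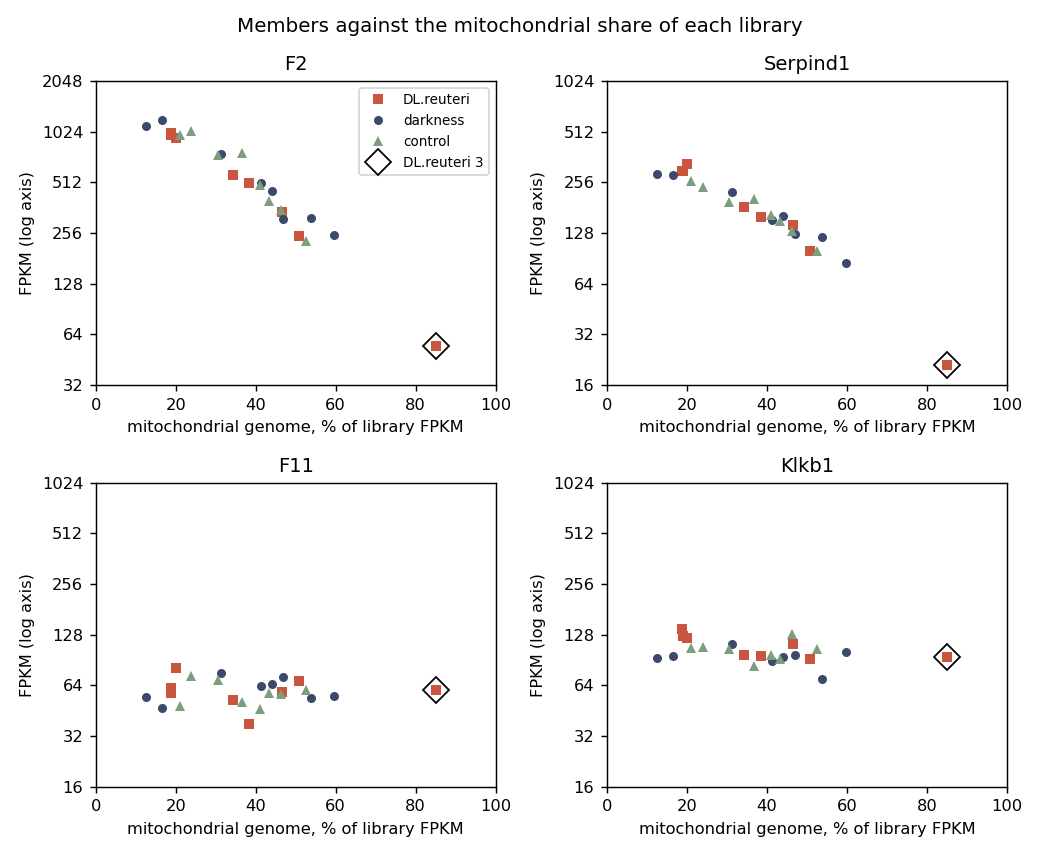
FPKM (log axis) of F2, Serpind1, F11 and Klkb1 against the share of library FPKM from the mitochondrial genome in 24 livers, by group, with DL.reuteri 3 in an open diamond. F2 and Serpind1 are lower where the share is higher, with slopes of -0.59 and -0.48 log2 units per 10 percentage points, while F11 and Klkb1 have slopes of 0.00 and -0.05.

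Other genes of the same pathways were read from 5 lists, and limma called 0 of them at an adjusted p under 0.05 in each of the 3 comparisons. Of all genes, 0%, 0.0823% and 0.14% were called for darkness against control, DL.reuteri against darkness and DL.reuteri against control rats. At an unadjusted p under 0.05 these shares were 2.78%, 16.8% and 13.2%. Differences without DL.reuteri 3 are not given here for the list genes. Of 18 tested rows of other clotting and fibrinolysis genes, an unadjusted p under 0.05 was reached by Plat (tissue plasminogen activator) in darkness against control rats (-0.41 ± 0.17 with an adjusted p in limma of 0.9998) and by Hrg (histidine-rich glycoprotein) in DL.reuteri against control rats (-0.73 ± 0.28 with an adjusted p in limma of 0.275), both on the lower side. Fga, Fgb and Fgg, the fibrinogen chains, had 247, 139 and 127 FPKM in the lowest DL.reuteri library of each. Their DL.reuteri medians were 1494, 1331 and 1909 FPKM. For Hrg the lowest DL.reuteri library had 98.2 FPKM and the group median was 306 FPKM. The fibrinogen chains did not reach an unadjusted p under 0.05, with differences between DL.reuteri and darkness rats of -0.25, -0.30 and -0.35. Of 21 tested rows of other complement genes, Cfd (factor D), the protease that cleaves factor B and a product of adipocytes as well, reached it in DL.reuteri against control rats (-1.003 ± 0.32 with an adjusted p in limma of 0.187), and the part of the adipocyte markers, high in control 8, was not tested. C3, the hub of all complement pathways, had 1650.2 ± 655 FPKM in DL.reuteri rats, 1571 ± 459 in darkness rats and 1627 ± 434 in control rats (SD, n = 8 each).

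Of 7 tested rows of the vitamin K cycle and of secretion of clotting factors, Vkorc1, the vitamin K epoxide reductase that warfarin blocks, had 56.5 ± 21.4 FPKM in DL.reuteri rats, 81.5 ± 21.4 in darkness rats and 78.9 ± 12.7 in control rats (SD, n = 8 each). The lowest DL.reuteri library of Vkorc1 had 6.34 FPKM, where the group median was 60.4 FPKM. Vkorc1 reached an unadjusted p under 0.05 on the lower side in DL.reuteri rats, against darkness rats (-0.71 ± 0.33 with an adjusted p in limma of 0.271) and against control rats (-0.69 ± 0.33 with an adjusted p in limma of 0.368). Of 10 acute phase proteins, Lbp (lipopolysaccharide-binding protein) had 8.55 FPKM in its lowest DL.reuteri library, where the group median was 25.4 FPKM. Lbp reached an unadjusted p under 0.05 in DL.reuteri against control rats (-0.70 ± 0.26 with an adjusted p in limma of 0.260). Of 14 tested rows of hepatocyte transcription factors, 2 reached it in darkness against control rats, both on the lower side (Foxa3 and Onecut1). In DL.reuteri against darkness rats 3 reached it on the higher side (Hnf4a, Onecut1 and an Nr3c1 row) and 1 on the lower side (Foxa2, -0.56 ± 0.25 with an adjusted p in limma of 0.249). In DL.reuteri against control rats 2 reached it on the higher side (Hnf4a and the same Nr3c1 row) and 1 on the lower side (Cebpb, -0.75 ± 0.35 with an adjusted p in limma of 0.352). Hnf4a, a nuclear receptor that controls many clotting factor genes, had 121 ± 27.99 FPKM in DL.reuteri rats, 79.7 ± 16.2 in darkness rats and 82.3 ± 12.1 in control rats. Its difference was on the higher side in DL.reuteri rats, against darkness rats (0.59 ± 0.16 with an adjusted p in limma of 0.0816) and against control rats (0.53 ± 0.16 with an adjusted p in limma of 0.169). Onecut1, another liver-enriched factor, had 25.5 ± 9.42 FPKM in DL.reuteri rats, 9.67 ± 8.16 in darkness rats and 17.04 ± 10.3 in control rats, with a DL.reuteri against darkness difference of 1.66 ± 0.47 with an adjusted p in limma of 0.0830. The Nr3c1 row ENSRNOG00000048800 (the glucocorticoid receptor) had 3.61 ± 1.70 FPKM in DL.reuteri rats, 1.63 ± 0.901 in darkness rats and 1.84 ± 0.619 in control rats, with a DL.reuteri against darkness difference of 0.79 ± 0.26 with an adjusted p in limma of 0.128. The other Nr3c1 row, ENSRNOG00000014096, differed by 0.27, and how fragments were split between the rows is not given in the sources used here. None of these passed the adjusted threshold.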

How the data were processed

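Liver RNA of 24 rats was sequenced by the authors from libraries of the VAHTS Universal V6 kit, whose strand setting in counting is not given in the sources used here. The deposited FPKM were made by the authors from reads trimmed with Seqtk, mapped with HISAT2 2.0.4 to Rnor 6.0 (both per the submitters' processing notes) and quantified with StringTie. The labels name no cage, and rats were treated as independent. Of 30958 rows, 1 repeated identifier at 0 throughout was left out. FPKM hold no counts, so a gene with low FPKM has unknown depth.

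log2(FPKM + 1) was compared in limma 3.58.1 (R 4.3.3), 3 groups in 1 fit with a trend in the variance prior, over 12151 genes reaching 0.5 FPKM in 8 or more libraries. Tests were two-sided, adjusted by Benjamini and Hochberg over all these genes, and called at an adjusted p under 0.05. Ballgown's model with its library term, which the authors used, was an alternative, as were pseudocounts of 0.1 and 0.01, other filters, scalings, covariates, weights, 2-group fits and fits without single libraries. The fit was tested on data simulated with independent noise, which held no shift shared by a whole library. The members and lists were chosen with earlier results of these data known. Every member is named with its group means. The range is given for the most abundant member of each role and each member with an unadjusted p under 0.05, and list genes are named by smallest p (at most 3 a list). Foxa2, Foxa3, Cebpb, C3 and the fibrinogen chains are outside this rule and were chosen after their values were seen. Tables and figures used Python 3.11.15, pandas 2.3.3, numpy 2.4.6 and matplotlib 3.10.9.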

Additional observations from a re-analysis of the deposited data

Results flagged for a closer look

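In 5 of the 96 combinations of a member and a group, 1 library lay so far from the other 7 that the gap as a share of the range of the group exceeded the critical value of the Dixon test, and in all 5 that library was DL.reuteri 3. Vtn had 293 FPKM there, and the nearest DL.reuteri library had 1014 FPKM. C8g had 83.5 FPKM, with the nearest at 202 FPKM. F10 had 74.1 FPKM, with the nearest at 216 FPKM. Masp2 had 45.8 FPKM, with the nearest at 78.02 FPKM, and C6 had 19.5 FPKM, with the nearest at 57.6 FPKM. Chance alone would single out about 1 in 20 such combinations, and 5.21% were singled out here. The rows share the same libraries, so the combinations are not independent. These shares therefore cannot tell whether the 5 arose by chance. All 5 fell in DL.reuteri 3, which was the lowest of the 24 libraries in 26 of the 32 rows. The same library had the highest mitochondrial share (85.0%) and the lowest hepatocyte marker score (8.25), and their part in these values was not tested.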

How the results depend on the processing

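With each of the 24 libraries left out in turn, 0 members were called in each comparison. Of all genes, 0 were then called between darkness and control rats. Between DL.reuteri and darkness rats 0 to 1220 were called, and between DL.reuteri and control rats 0 to 251, both highest without DL.reuteri 3. The median difference of the 32 rows ran from -0.08 to 0.05 for darkness against control rats. It ran from -0.15 to 0.14 for DL.reuteri against darkness and from -0.16 to 0.12 for DL.reuteri against control rats. Of single libraries left out, only DL.reuteri 3 turned both DL.reuteri medians to the positive values given above. Over all 41 alternatives no member was called between darkness and control rats. Of all genes at most 2 were called there, with the mitochondrial share as a covariate. Between DL.reuteri and darkness rats 6 alternatives called members, namely 3 with the Ballgown library term, 2 with the hepatocyte marker score, 2 with the mitochondrial share, 1 with scaling outside the mitochondrial genome, 1 with that scaling without DL.reuteri 3, and 2 with median ratios without DL.reuteri 3. Between DL.reuteri and control rats the Ballgown library term called 2. Both rescalings combined with leaving out DL.reuteri 3, scaling to the median member of each library and the slopes on the mitochondrial share were chosen after seeing the data. Over all 41 the medians ran from -0.10 to 0.16, -0.27 to 0.18 and -0.24 to 0.12 in these 3 comparisons, in the order given at the start. Rows at an unadjusted p under 0.05 numbered 0 to 1, 0 to 11 and 0 to 8 in the 3 comparisons. The 1 was reached with the Ballgown library term, among others, where 3.3% of all genes passed. The 11 came with the mitochondrial share as a covariate, where 27.3% of all genes passed. The 8 came with the hepatocyte marker score and with the mitochondrial share as covariates, where 22.5% and 22.6% passed. The signs of uncalled differences changed in up to 16 of 32 rows in 1 setting. The causes were not tested. Same-numbered rats did not deviate together in every pair (correlations of -0.39 to 0.60), so replicate numbers were taken as names only, and with the number as a block 0 members were called in each comparison and 0, 3 and 9 of all genes. FPKM without counts set no depth limit, and effects shared within cages could not be assessed.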
